A study of Mus musculus with 2 samples.

Results

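Chromatin at 4 groups of microRNA (miRNA) genes that act in lymphocytes was examined in mouse Th2 cells: Mir21, Mir142, Mir155 and the cluster of 6 genes that runs from Mir17 to Mir92-1. Each was taken as a fixed window of the mm9 genome cut into 1-kb bins. The windows were chosen from known genes and with the acetylation of these same libraries in view, so every level and ratio given here is a description and was not tested. They held 240 bins, of which 237 had at least 1 read, out of 2246042 covered bins in the genome. The Mir21 window is on chromosome 11 from 86360001 to 86440000 (80 bins), the Mir142 window on chromosome 11 from 87530001 to 87590000 (60 bins), the Mir155 window on chromosome 16 from 84690001 to 84740000 (50 bins) and the Mir17 window on chromosome 14 from 115420001 to 115470000 (50 bins).

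There were 2 libraries of chromatin immunoprecipitation with sequencing (ChIP-seq), 1 for each antibody, both from the same kind of cell. Spleen cells of C57BL/6 mice carrying CD4 and CD62L had been stimulated with antibodies to CD3 and CD28 over 5 days, with anti-IFN-g at 2 µg/ml and IL-4 at 10 ng/ml, which drives them to the Th2 state, and a rest of 3 days followed. The anti-H3KAc antibody binds histone H3 acetylated on its lysines, and polyclonal rabbit IgG measures what is pulled down without a target. The labels give neither the number nor the age of the mice. The identity of the cells was not checked here against marker genes. The H3KAc library had 19711169 distinct read positions and the IgG library 1897666, that is 8.78 and 0.845 reads per covered bin. Levels are reads per 1000000 distinct positions (RPM), so 1 read is 0.0507 RPM in H3KAc and 0.527 RPM in IgG. With 1 library per antibody there is no replicate check, and all intervals are 95% intervals for counting error alone.

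A miRNA is a short RNA cut from a hairpin in a longer transcript. Loaded into an Argonaute protein, it finds messenger RNAs mainly through its seed, bases 2 to 8 from the 5′ end, and lowers their translation and stability. miR-21 is induced when T cells are activated and represses Pdcd4, miR-142 is restricted to blood cells, miR-155 comes from the former Bic gene and represses the Th2 factor Maf, and the miRNAs of the Mir17 cluster repress Bim and favour lymphocyte growth. Acetylated histone H3 marks promoters, enhancers and the beginnings of transcribed genes, and a miRNA's promoter can lie far from its hairpin.

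The miRNAs made from these loci are shown first because their seeds decide which of them share targets. All 9 genes were found in RefSeq's table for GRCm38.p6, which is a later build than that of the reads, so its names, sequences and gene order are used and its positions are not. In the lines that follow, the seed is in capitals.
miR-21a-5p: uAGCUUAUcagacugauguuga
miR-142a-5p: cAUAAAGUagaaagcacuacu
miR-142a-3p: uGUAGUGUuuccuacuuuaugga
miR-155-5p: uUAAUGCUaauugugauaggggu
miR-17-5p: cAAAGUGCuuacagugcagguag
miR-20a-5p: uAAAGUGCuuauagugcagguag
miR-18a-5p: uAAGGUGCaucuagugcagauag
miR-19a-3p: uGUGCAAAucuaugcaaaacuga
miR-19b-3p: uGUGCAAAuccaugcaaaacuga
miR-92a-3p: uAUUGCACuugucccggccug

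The cluster thus carried 4 seed families in these 6 miRNAs. miR-17-5p and miR-20a-5p shared the seed AAAGUGC and 21 of 23 bases, differing by C1U and C12U (positions counted from 1 at the 5′ end, the base of miR-17-5p first). miR-19a-3p and miR-19b-3p shared GUGCAAA and differed by U11C alone. miR-18a-5p differed from miR-17-5p at 6 of 23 bases, of which A4G lies in the seed, so it has a seed of its own. In the RefSeq table, 6 other mouse miRNAs carry the seed of miR-17-5p (miR-20a-5p, miR-20b-5p, miR-93-5p, miR-106a-5p, miR-106b-5p and miR-6383). For miR-92a-3p there are 5 (miR-25-3p, miR-32-5p, miR-363-3p, miR-367-3p and miR-92b-3p). No other mouse miRNA of the table carries the seed of miR-155-5p or of either arm of miR-142a, and miR-21a-5p shares its seed with miR-21c alone.

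The hairpins of the other 3 loci are shown because, unlike the cluster, each of those windows is named for a single hairpin. The mature arms are in capitals.
Mir21a: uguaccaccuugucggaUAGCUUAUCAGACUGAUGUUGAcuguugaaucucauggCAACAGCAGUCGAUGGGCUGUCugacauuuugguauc
Mir142: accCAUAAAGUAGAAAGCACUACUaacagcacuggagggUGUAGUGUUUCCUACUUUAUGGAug
Mir155: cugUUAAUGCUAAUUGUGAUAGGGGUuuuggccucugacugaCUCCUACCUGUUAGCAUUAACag
In the RefSeq annotation, the Mir21a hairpin (92 bases, minus strand) overlaps Vmp1, a gene for a membrane protein of autophagy, and lies between Tubd1 and Ptrh2. The Mir142 hairpin (64 bases, plus strand) overlaps the annotated Mir142b, and its protein-coding neighbours are Supt4a, for a transcription elongation factor, and Tspoap1, followed by the myeloid peroxidase gene Mpo. The Mir155 hairpin (65 bases, plus strand) lies in its host transcript Mir155hg, next to Mrpl39. The 6 hairpins of the cluster follow each other as Mir17, Mir18, Mir19a, Mir20a, Mir19b-1 and Mir92-1, with Gpc5 as the next protein-coding gene. Since no mm9 position of a hairpin or start site was used, acetylation in a window was not assigned to the miRNA gene or to a neighbour.

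All 4 windows stood above their chromosomes in H3KAc per kb, and they formed a clear order of level. Mir142 had 2.31 RPM per kb (2.23 to 2.40) from 2737 reads. Mir21 had 1.12 (1.07 to 1.17) from 1767 reads. Mir155 had 0.709 (0.658 to 0.764) from 699 reads and Mir17 0.512 (0.469 to 0.559) from 505 reads. None of these 4 intervals overlapped its neighbour. The covered bins of chromosome 11 averaged 0.614 RPM per kb in H3KAc, those of chromosome 16 averaged 0.406 and those of chromosome 14 averaged 0.386.

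The order changed once the background was taken into account, because IgG differed between the windows too. IgG was highest at Mir142, with 1.37 RPM per kb (1.16 to 1.60) from 156 reads, against 0.408 at Mir21 (62 reads), 0.432 at Mir155 (41 reads) and 0.242 at Mir17 (23 reads). The ratio of H3KAc to IgG was 2.74 (2.13 to 3.59) at Mir21, 2.11 (1.39 to 3.37) at Mir17, 1.69 (1.44 to 2.00) at Mir142 and 1.64 (1.197 to 2.308) at Mir155. Only the intervals of Mir21 and Mir142, which are not neighbours in this order, did not overlap. Windows next to each other in the order are not separated at this depth. Over all 4 windows the ratio was 1.95 (1.73 to 2.20), and over the covered bins of chromosomes 11, 14 and 16 it was 0.993, 1.02 and 1.05. Because each library is scaled to its own total, a value near 1 is what whole chromosomes give.

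Set beside all tiles of the same width on the autosomes (tiles at least 50% covered), the windows differed in how far out they lay. H3KAc at Mir142 was higher than in 99.95% of 39350 tiles of 60 kb, but its IgG was also higher than in 97.4% of them, and its ratio was higher than in 90.7%. Mir21 was higher in H3KAc than 96.6% of 29514 tiles of 80 kb and higher in ratio than 99.49%, with IgG above that of 63.1%. Of 47200 tiles of 50 kb, 84.1% were lower than Mir155 in H3KAc and 70.0% were lower than Mir17, and their ratios exceeded those of 87.8% and 95.4% of the tiles with an IgG read. Among tiles of the same chromosome, the share lower in H3KAc was 91.7% at Mir21, 99.90% at Mir142, 87.8% at Mir155 and 77.4% at Mir17. The share lower in ratio was 99.46%, 90.5%, 85.9% and 95.7% in the same order, and the share lower in IgG at Mir21 was 45.5%. The windows were picked as acetylated gene loci, so these shares place them on a scale and do not test them.

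**Figure D1:**
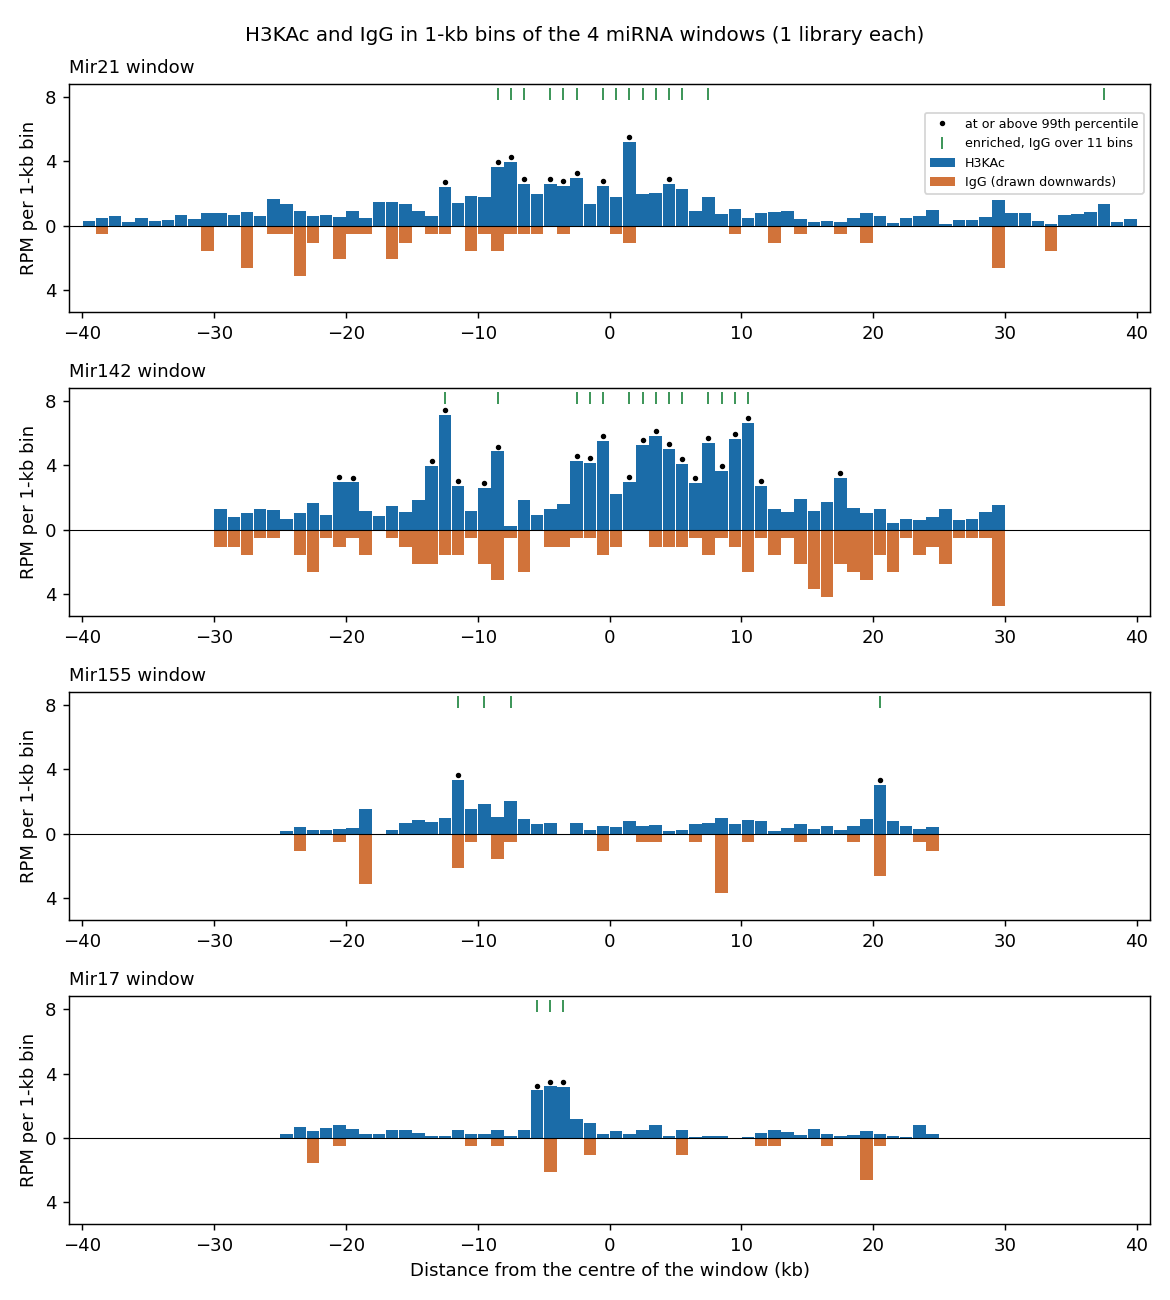
H3KAc (bars up) and IgG (bars down) in RPM for each 1-kb bin, by distance in kb from the centre of each window, with 1 library per antibody. Dots mark bins at or above the 99th percentile of H3KAc over all covered bins, and ticks mark bins enriched against IgG over 11 bins. Mir21 and Mir142 have broad stretches of marked bins, Mir155 has isolated ones and Mir17 has a single group of 3.

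Bins were called high when their H3KAc count reached the 99th percentile of all covered bins, 46 reads or 2.33 RPM. With ties, 1.02% of covered bins were high. In the windows 37 of 240 bins (15.4%) were high, but acetylation entered the choice of the windows and nothing is read from that excess. They were spread unevenly: 22 of 60 bins at Mir142, 10 of 80 at Mir21, 3 of 50 at Mir17 and 2 of 50 at Mir155. The median bin held 29.5 H3KAc reads at Mir142, 15.5 at Mir21, 11.5 at Mir155 and 6 at Mir17, and the median covered bin of the genome held 6. The Mir17 window was thus at the genome's median apart from its high bins.

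Mir21 carried a broad stretch of acetylation at a moderate level. Of its 10 high bins, 8 fell in an 11-kb block from 86391001 to 86402000 (a block joins high bins across gaps of no more than 1 bin), which held 612 H3KAc and 10 IgG reads. The block averaged 2.82 RPM per kb (2.60 to 3.06) in H3KAc and 0.479 (0.230 to 0.881) in IgG, a ratio of 5.89 (3.18 to 12.3). High bins were chosen by their H3KAc counts, which tends to raise the ratio inside any block and to lower it outside. The counting intervals leave this choice out. The other 2 high bins stood alone, from 86387001 to 86388000 with 48 H3KAc reads and 1 IgG read and from 86404001 to 86405000 with 51 and 0. Inside the block the H3KAc count ran from 26 to 103 reads per bin, so none of its 11 bins fell to the median of the window.

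The highest bin of the Mir21 window, from 86401001 to 86402000, had 5.23 RPM in H3KAc (4.27 to 6.34) from 103 reads and 1.05 RPM in IgG from 2 reads. Its ratio was 4.96 with an interval from 1.34 to 41.5, which shows how little 2 IgG reads determine. Only 0.217% of covered bins had as many H3KAc reads or more, but this bin is the highest of 80. Of tiles of 80 kb, 89.2% on the autosomes and 79.5% on chromosome 11 had a lower highest bin. The next bins, from 86392001 and from 86391001, had 3.96 and 3.65 RPM in H3KAc and 0.527 and 1.58 RPM in IgG. The 2 maxima thus lay at opposite ends of the block. Most IgG reads of the window, 6, fell in the bin from 86376001, where H3KAc had 0.913 RPM and IgG 3.16 RPM.

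The raised ratio at Mir21 also reached past the block. Outside its blocks, the other 67 bins had 0.7996 RPM per kb (0.752 to 0.849) in H3KAc and a ratio of 1.99 (1.505 to 2.695). The 20 kb before the window still had 0.667 RPM per kb and a ratio of 3.17 (1.58 to 7.41), and the 20 kb after it had 0.373 and 1.57 (0.806 to 3.51). On the earlier side the window's edge therefore did not bound the raised ratio. The H3KAc level there (0.589 to 0.753) was not separated from the 0.614 RPM per kb of chromosome 11. IgG was low there, with 0.211 RPM per kb from 8 reads against 0.618 on chromosome 11. Outside the blocks of the window IgG was 0.401 RPM per kb.

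Mir142 had the highest H3KAc of the 4 windows and the most high bins. Its main block spanned 15 kb, from 87557001 to 87572000, with 1309 H3KAc and 26 IgG reads, 4.43 RPM per kb (4.19 to 4.67) against 0.913 (0.597 to 1.34) and a ratio of 4.85 (3.29 to 7.45). A second block of 6 kb, from 87546001 to 87552000, had 3.75 RPM per kb in H3KAc and 1.84 in IgG, a ratio of 2.03 (1.31 to 3.31). In a 2-kb block from 87539001 to 87541000 the ratio was 3.75 (1.25 to 18.5), while a lone high bin from 87577001 had 1.54 (0.573 to 5.83). H3KAc per kb was higher in the main block than in the 6-kb block (3.41 to 4.11), and IgG per kb was lower there, with intervals that overlapped (1.14 to 2.82 in the 6-kb block).

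The 3 highest bins of the Mir142 window were split between the 2 larger blocks. The bin from 87547001 to 87548000, in the 6-kb block, had 7.15 RPM in H3KAc (6.02 to 8.44) from 141 reads and 1.58 RPM in IgG from 3 reads, a ratio of 4.52 (1.52 to 22.2). Only 0.071% of covered bins had as many H3KAc reads or more, but this bin is the highest of 60. Of tiles of 60 kb, 96.9% on the autosomes and 93.3% on chromosome 11 had a lower highest bin. In the main block, the bin from 87570001 had 6.65 RPM and 2.63 RPM, and the bin from 87563001 had 5.83 RPM and 1.05 RPM. Between the 2 larger blocks the bins held 4, 37, 18, 25 and 32 H3KAc reads, below the 46 that define a high bin. The bin from 87552001, just after the 6-kb block, held 4 H3KAc reads, the fewest in the window, directly beside a bin of 96.

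Outside its blocks the Mir142 window lay below IgG. Its other 36 bins had 1.13 RPM per kb (1.06 to 1.21) in H3KAc and 1.49 (1.22 to 1.81) in IgG, a ratio of 0.759 (0.617 to 0.942). Taking out the high bins lowers this ratio, by an amount that was not tested. The 20 kb after the window had a ratio of 0.491 (0.377 to 0.648), from 342 H3KAc and 67 IgG reads, and the 20 kb before it 0.783 (0.555 to 1.13). The bin with the most IgG in the window, from 87589001 to 87590000 at its very end, had 4.74 RPM in IgG and 1.52 RPM in H3KAc. IgG was found in all but 5 of the 60 bins, whereas 60.5% of covered bins in the genome had none. The part of this high IgG level in the window's ratio of 1.69 was not tested.

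Mir155 had the fewest high bins, and they were far apart. The bin from 84703001 to 84704000 had 3.35 RPM in H3KAc (2.59 to 4.26) from 66 reads and 2.11 RPM in IgG from 4, a ratio of 1.59 (0.592 to 6.00). The bin from 84735001 to 84736000, 32 bins further on, had 3.04 RPM (2.32 to 3.92) from 60 reads and 2.63 RPM from 5, a ratio of 1.16 (0.469 to 3.69). Both intervals include 1, so neither bin was separable from IgG of the same bin. The third bin by level, from 84707001, held 40 H3KAc reads and 1 IgG read, just below the 46 that define a high bin.

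The first of these Mir155 bins had raised neighbours, and the second did not. From 84704001 to 84708000 the 4 bins after the first held 30, 36, 20 and 40 H3KAc reads and 1, 0, 3 and 1 IgG reads. The bins on either side of the second held 18 and 16 H3KAc reads and no IgG read. Outside the 2 high bins the window had 0.606 RPM per kb in H3KAc and a ratio of 1.72 (1.21 to 2.54), so the ratio of the Mir155 window does not rest on its high bins. The flanks had 0.279 RPM per kb before and 0.330 after, below the window's level. Their ratios of 1.77 (0.785 to 4.91) and 2.09 (0.933 to 5.79) each rested on 6 IgG reads and were no lower than the window's 1.64. Whether the Mir155 window stands above its flanks relative to IgG could not be told at this depth. The most IgG reads, 7, lay in the bin from 84723001, with 19 H3KAc reads. Neither library had a read in 2 bins of this window, from 84697001 and from 84711001.

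Mir17 had 1 compact peak. A 3-kb block from 115439001 to 115442000 held 183 of the window's 505 H3KAc reads (36.2%) and 4 of its 23 IgG reads. Its 3 bins were nearly equal, with 2.94, 3.20 and 3.15 RPM in H3KAc from 58, 63 and 62 reads. The middle bin, the highest of the window, had a ratio of 1.52 (0.564 to 5.74). That interval includes 1, so this bin was not separable from IgG of the same bin. IgG had 4 reads in the middle bin and none in the other two, where the interval of a count of 0 reaches 1.94 RPM. The block averaged 3.09 RPM per kb (2.66 to 3.58) in H3KAc and 0.703 (0.191 to 1.80) in IgG, a ratio of 4.40 (1.69 to 16.3). The next bins, from 115442001 and 115443001, fell to 23 and 18 reads, and the bin just before the block had 10.

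The rest of the Mir17 window was close to its surroundings. Its other 47 bins had 0.348 RPM per kb (0.311 to 0.388) in H3KAc, against 0.312 (0.259 to 0.372) in the 20 kb before and 0.320 (0.266 to 0.381) in the 20 kb after, intervals that all overlapped. The ratio to IgG was 1.63 (1.03 to 2.75) in these 47 bins, 1.48 (0.728 to 3.51) before the window and 1.73 (0.817 to 4.40) after it. The highest bin stood 10.5 times above the median bin of the window, compared with 6.65 times at Mir21, 5.74 at Mir155 and 4.78 at Mir142. The bin with the most IgG, from 115464001, held 8 H3KAc and 5 IgG reads. One way to compare concentration is the smallest set of bins that holds 50% of a window's H3KAc reads: 7 of 50 bins (14.0%) at Mir17, 11 of 50 (22.0%) at Mir155, 18 of 80 (22.5%) at Mir21 and 14 of 60 (23.3%) at Mir142. Bins were sorted by their counts, so counting error lowers this share, and more so where reads are few. Mir17 had the fewest H3KAc reads, 505, and Mir142 the most, 2737. The part of this in the order of the windows was not tested.

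**Figure D2:**
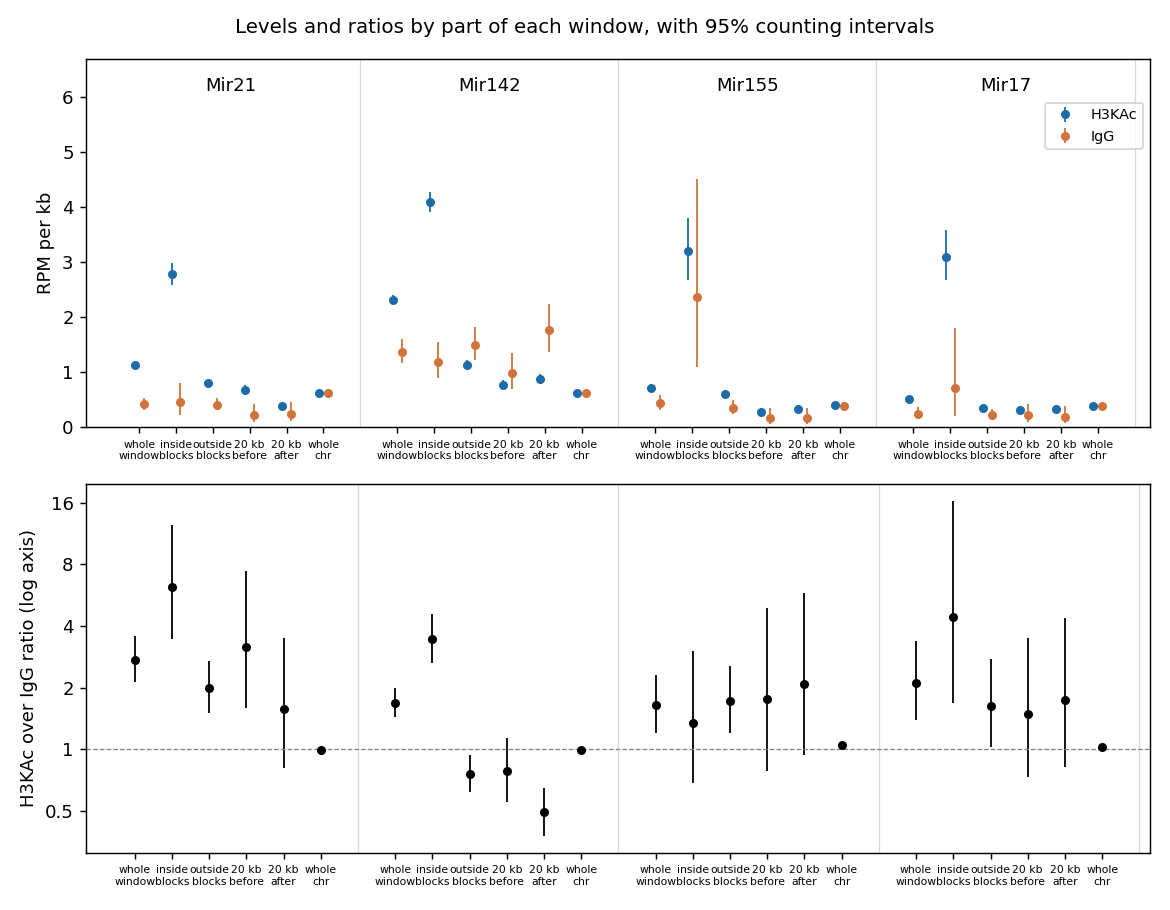
RPM per kb of H3KAc and IgG (upper panel) and the H3KAc over IgG ratio on a log axis (lower panel) for each whole window, its bins inside and outside blocks of high bins, the 20 kb on either side, and the covered bins of the whole chromosome. Lines are 95% counting intervals. The ratio inside blocks was 6.22 at Mir21, 4.40 at Mir17, 3.45 at Mir142 and 1.35 at Mir155. Blocks were chosen by H3KAc counts alone, which tends to raise ratios inside them and to lower those outside, and the intervals leave this out.

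Read together, the high bins carried 48.8% of the H3KAc reads of the 4 windows and 25.9% of the IgG reads in 15.4% of the bins. High bins were chosen by their H3KAc count, so their large share of H3KAc reads follows from that choice and nothing is read from it. Mir142, the window with the most IgG, supplied 22 of these 37 bins and 51 of their 73 IgG reads, so the pooled share of IgG mixes levels that differ between windows. Within a window, high bins held 68.2% of H3KAc and 32.7% of IgG reads at Mir142, 34.6% and 14.5% at Mir21, 36.2% and 17.4% at Mir17, and 18.0% and 22.0% at Mir155. As a share of bins, high bins were 36.7% at Mir142, 12.5% at Mir21, 6.0% at Mir17 and 4.0% at Mir155, so the high bins of Mir142 held no more IgG per bin than its other bins and those of Mir21 about as much, and the higher shares at Mir17 and Mir155 came from 4 and 9 IgG reads. In Mir155 the share of IgG was thus as large as that of H3KAc, from 9 of 41 IgG reads.

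Calls of single bins against IgG were limited by the IgG depth. A bin was called enriched when the lower bound of its ratio was above 2 and both libraries together had at least 5 reads, and with no IgG read this takes 79 H3KAc reads. By this rule 0.0524% of covered bins were enriched, and 1 of the 240 bins was. It lay in the main block of Mir142, from 87562001 to 87563000, with 104 H3KAc reads (5.28 RPM) and no IgG read, and its lower bound was 2.67. Only 13 bins reached 79 reads, 12 at Mir142 and 1 at Mir21, and the other 12 had between 1 and 6 IgG reads. The low count of calls at Mir21, Mir155 and Mir17 is therefore not evidence that acetylation is absent there. With a lower bound above 1 in place of 2, 0.409% of covered bins passed, and 22 of the 240 did: 13 at Mir142, 7 at Mir21, 2 at Mir17 and none at Mir155. IgG was the higher library in RPM in 54 of the 240 bins (22.5%), against 31.3% of all covered bins.

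With IgG taken from the bin and the 5 bins to either side of it (11 bins), a steadier measure of local background, 1.35% of covered bins were enriched and 36 of the 240 were. They numbered 15 of 80 at Mir21, 14 of 60 at Mir142, 4 of 50 at Mir155 and 3 of 50 at Mir17. This rule compares a peak with its surroundings and does not remove IgG that peaks in the same bin. At Mir21 the highest bin reached a ratio of 27.3 (10.3 to 102) because only 4 IgG reads fell in the 11 bins around it. The other enriched bins of Mir21 had ratios between 4.91 and 14.1, those of Mir142 between 3.28 and 7.70, those of Mir155 between 4.24 and 7.77, and those of Mir17 were 7.68, 9.53 and 9.38. All 14 enriched bins at Mir142 and all 3 at Mir17 were also high, as were 9 of 15 at Mir21 and 2 of 4 at Mir155.

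The enriched bins made up stretches that differed in width. The rule picks bins by their ratio, so the ratios of these stretches are raised by that choice too. At Mir21 they formed 1 region of 17 kb, from 86391001 to 86408000, with a ratio of 8.09 (4.38 to 16.9) to IgG of the region itself, and a lone bin from 86437001. At Mir142 there was a region of 14 kb inside the main block (4.83, 3.26 to 7.50) and 2 single bins, from 87547001 and 87551001. At Mir155 the ratio of a 5-kb region from 84703001 to 84708000 to its own IgG was 2.05 (1.06 to 4.56), from 192 and 9 reads, and the bin from 84735001 stood alone. At Mir17 the region was the 3-kb block itself. Of the 2 widest, the Mir21 region had less H3KAc per kb (2.51 RPM) than the Mir142 region (4.55 RPM) and also less IgG (0.310 against 0.941 RPM per kb).

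**Figure D3:**
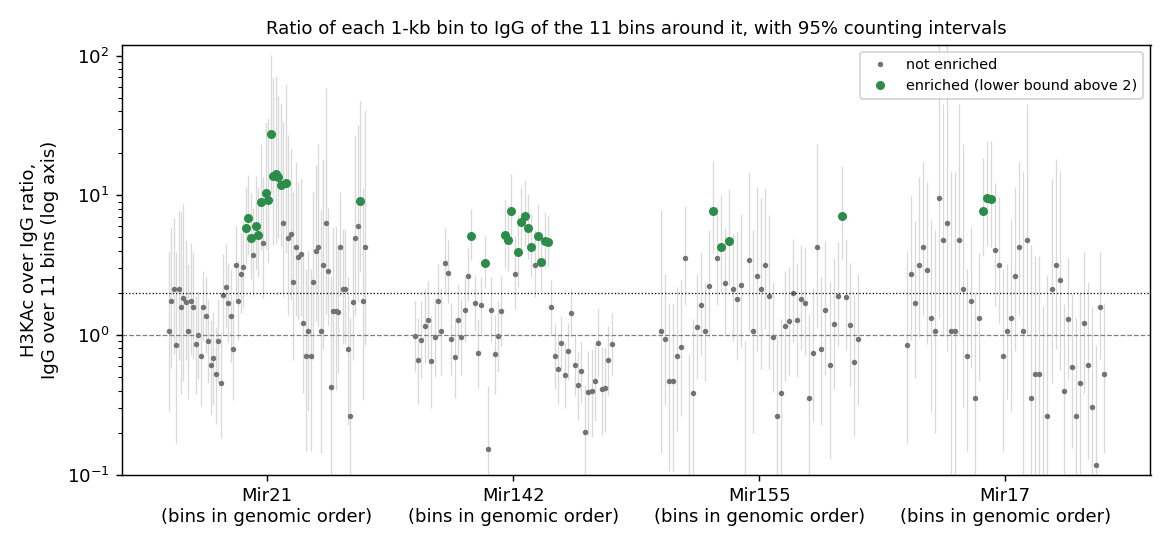
Ratio of H3KAc in each 1-kb bin to IgG over the 11 bins around it, on a log axis, in genomic order within each window; grey lines are 95% counting intervals, some of which run beyond the axis. Filled circles are the 36 enriched bins. At Mir21 they lie in a stretch interrupted by bins that were not enriched, with a highest ratio of 27.3, and 1 of them lies apart.

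At 100 bp, H3KAc in and around the highest bins of the windows was not smooth. These features were chosen after their values were seen, and positions are given from the centre of each highest bin along the plus strand of the genome. At Mir142 the H3KAc count was 21 reads at -550 bp and at -350 bp, fell to 3 at -50 bp and rose to 26 at 150 bp. At Mir155 it was 13 at -450 bp, 0 at -150 bp and 13 at 350 bp. At Mir17 it was 18 at -850 bp, 1 at -450 bp and 12 at -150 bp, and at Mir21 it was 15 at -1450 bp, 0 at -950 bp and 23 at 50 bp. The Mir21 low point lay outside the highest bin, and within that bin no 100 bp held fewer than 3 reads. The low points were at the usual level of the windows, whose median 100 bp held 3 reads at Mir142, 1 at Mir21 and Mir155 and 0 at Mir17. No more than 2 IgG reads fell in any 100 bp of these stretches, so a matching dip in IgG could not be seen, and the part of uneven alignability in the dips was not tested.

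**Figure D4:**
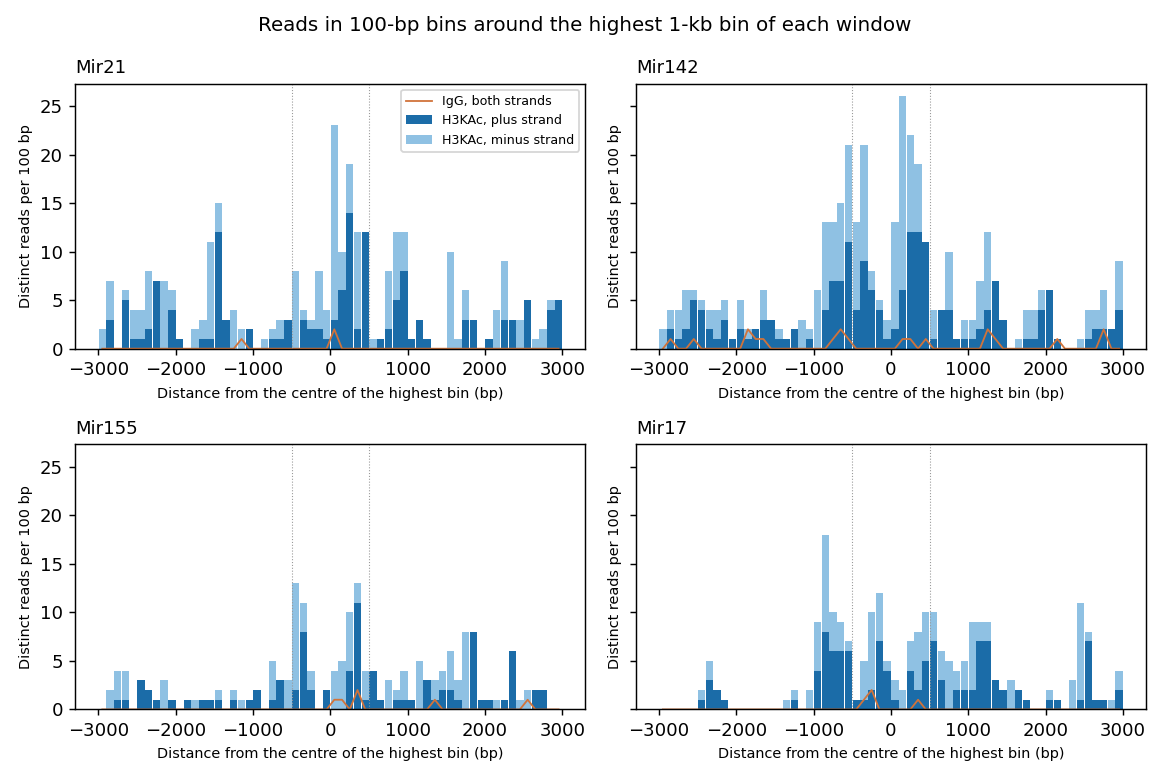
Distinct H3KAc reads per 100 bp, stacked by strand, and IgG reads (line) within 3 kb of the centre of the highest 1-kb bin of each window; dotted lines mark the edges of that bin. Mir142 shows a low point of 3 reads between maxima of 21 and 26.

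H3KAc reads of both strands contributed to each of the 3 highest bins of every window. The highest bin had 45 plus-strand and 58 minus-strand reads at Mir21, 67 and 74 at Mir142, 30 and 36 at Mir155 and 27 and 36 at Mir17. The single 100-bp bins with the most H3KAc were from 86392901 at Mir21 (31 reads), from 87569801 at Mir142 (32), and from 115439601 at Mir17 (18), with IgG at 0, 1 and 0 reads. At Mir155 there was no single maximum: the 100-bp bins from 84703001, 84703801 and 84735101 each had 13 H3KAc reads, with 0, 2 and 0 IgG reads, and the last lies in the other high bin. At Mir21 this 100-bp maximum did not lie in the highest 1-kb bin but at the opposite end of the block, and at Mir142 and Mir17 it also lay outside the highest 1-kb bin. In these 3 windows the place of the maximum thus differed between 100-bp and 1-kb bins. Within the highest 1-kb bin, the largest 100-bp count was 23 at Mir21, 26 at Mir142 and 12 at Mir17. Whether the difference in place exceeds counting error was not tested.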

How the data were processed

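The authors deposited 1 row per aligned read, with chromosome, start, end and strand and no normalization. Reads were aligned with Bowtie to mm9, per the submitters' processing notes. How reads that align in several places were handled is not given in the sources used here, nor is any filter on quality. Counts were computed here from the deposited positions. All reads were 35 bases long. A position (chromosome, 5′ end and strand) was counted once however often it was read, moved 100 bp along their strand and assigned to 1-kb bins. The moved position is near the middle of the fragment, for which the labels' protocols give a median of about 200 bp. Counting copies once lowers levels where many fragments share a start, and reads carried no molecular identifier. RPM uses the total of distinct positions of each library.

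Ratios have exact conditional binomial (Clopper-Pearson) intervals and levels exact Poisson intervals, all at 95%. No p-value was computed. The members, the windows and the rules for bins were chosen with earlier results of these data known. The bins named were the 3 with the most H3KAc reads in each window, the bin with the most IgG reads, enriched bins with IgG of the same bin, and blocks of high bins. Other bins were named to describe edges and neighbours, after their values were seen. Lists of other genes and cell markers were not analysed here, since no mm9 gene positions were used. The scripts ran on Python 3.11.15 with scipy 1.17.1, numpy 2.4.6 and pandas 2.3.3, and plots were drawn with matplotlib 3.10.9.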

Additional observations from a re-analysis of the deposited data

How the results depend on the processing

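The ratio of each of the 4 windows stayed above 1 and inside its own interval with all deposited reads, reads not moved, either strand alone and IgG scaled by background bins, 20 values in all. The highest bin was picked anew under each setting, so it was not always the same bin. Its RPM stayed within the interval of the main setting in 19 of 20 cases. The exception was Mir17, where bin edges moved by 500 bp gave 4.36 RPM. The count of 1 enriched bin with IgG of the same bin became 33 with all deposited reads, 22 with a lower bound above 1, 2 with moved edges, and 0 with 500-bp bins, with either strand alone and when the lower bound had to exceed 4. The 36 bins enriched with IgG over 11 bins became 60 with all deposited reads, 11 and 75 with lower bounds above 4 and above 1, and 60 with 500-bp bins, each window then having more bins. Of these changed rules, a share of all covered bins was computed only for the lower bound above 1 with IgG of the same bin (0.409%). The other counts are therefore not read as a result about the windows. High bins at the 98th percentile were 18 at Mir21 and 4 at Mir155. At a stricter percentile, 69 reads per bin, they were 3 at Mir21, 14 at Mir142, and 0 at Mir155 and at Mir17. With all deposited reads, copies entered the intervals as if independent. No paired analysis was possible because each antibody had 1 library. The 23 to 156 IgG reads per window set the width of every ratio's interval.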

Other observations

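Copies of a position, which were left out of the main counts, were more frequent in IgG, as in the libraries as a whole. In the 4 windows each H3KAc position was read between 1.09 and 1.13 times and each IgG position between 3.61 and 4.34 times, against 1.11 and 4.02 times over the whole libraries. Per 1000000 deposited reads, the removed copies were fewer in H3KAc than in IgG in all 4 windows, with ratios of 0.326 (0.262 to 0.405) at Mir21, 0.291 (0.196 to 0.431) at Mir17, 0.268 (0.233 to 0.309) at Mir142 and 0.194 (0.144 to 0.258) at Mir155, against 0.130 (0.1299 to 0.1303) over the whole libraries. Copies of 1 position are not independent, so these intervals are too narrow. The ratios of removed copies follow the same order as the H3KAc over IgG ratios of the windows. With reads per position close to those of the whole libraries, they are not a separate result about copies.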
